A study of Homo sapiens with 24 samples.

Results

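Control-siRNA A549 cells that received a mock treatment were compared at 12 h and at 8 h, to describe how transcript levels differed between the collection times with neither BOP1 depletion nor interferon. A549 is a human lung adenocarcinoma line. The comparison uses 6 of the 24 libraries of the series, chosen by their labels: the 3 siFLuc mock libraries of 12 h and the 3 siFLuc mock libraries of 8 h. All cells of the series were transfected for 48 h, either with siRNA against firefly luciferase (siFLuc, a control since human cells carry no such gene) or with a pool of siRNAs against BOP1 (siBOP1), a factor of large ribosomal subunit assembly. They were then given interferon beta (IFN) at 1000 U/mL or the mock treatment for 8 h or 12 h. The series asks how ribosome assembly bears on protein synthesis from mRNAs rich in non-optimal codons under IFN, and the libraries here are polyadenylated RNA, with no measure of translation. The labels do not describe the mock medium, and no group was collected before the treatment, so a difference between 12 h and 8 h cannot be placed against a starting level.

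Cells in culture face fresh medium at a change, and later changes in density and nutrients. Heat shock proteins are chaperones that fold other proteins, and their genes are switched on by the factor HSF1 when unfolded proteins accumulate. Immediate early genes, such as FOS and EGR1, encode transcription factors whose mRNAs appear within minutes of a stimulus and decay quickly. SR proteins and hnRNPs are RNA-binding proteins that set splice site choice, and many of them control their own mRNA through alternative splicing.

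One of the 6 libraries stood apart. Columns are numbered 1, 2 and 4 in each group, and the 12 h library numbered 4 gave 6.86% of its TPM (abundance per transcript length, as a share of all transcripts) to mitochondrially encoded genes, against 12.8% to 15.0% in the other 5. Its 10 highest genes held 9.5% of TPM, against 13.6% to 15.0% in the others. Pearson r of log2(TPM + 1) across genes was 0.985 between the 12 h libraries numbered 1 and 2, and 0.966 and 0.961 between each of them and number 4. At 8 h the corresponding values were 0.983, 0.979 and 0.978. Differences of at least 1 on the log2 scale between 12 h and 8 h were found for 459 genes in number 1, 468 in number 2 and 1189 in number 4. Results are therefore given with all libraries and with the libraries numbered 1 and 2 alone.

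Markers of the labelled cell type were present. The 7 epithelial and A549 markers, among them the keratins KRT8 and KRT18, summed to 10176 to 11008 TPM at 8 h and 11829 to 12240 TPM at 12 h, though EPCAM was only at 2.17 to 4.32 TPM. All 4 alveolar type 2 and all 4 endothelial markers were under 1 TPM in each of the 6 libraries, as were 5 of 6 fibroblast markers (all but COL1A1, 5.37 to 16.6 TPM) and 4 of 5 immune markers (all but CD14, 1.81 to 4.71 TPM). BOP1, the gene targeted in the other arm, was at 66.1, 55.9 and 77.3 TPM at 8 h and 51.9, 59.1 and 78.8 TPM at 12 h in libraries 1, 2 and 4, against 13.7 to 19.5 TPM in the siBOP1 mock libraries.

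With all libraries, few genes differed between the times. Of 16062 genes tested, 19 were higher at 12 h (0.118% of the genes) and 2 lower (0.0125%) by limma with a Benjamini-Hochberg adjusted p under 0.05. At an unadjusted p under 0.05 there were 2067. The median difference over all genes was 0.06 on the log2 scale. Under quantile normalization 13 genes were higher and 10 lower, and under median-of-ratios rescaling 20 and 12. Each of the 21 genes had the same sign in libraries 1, 2 and 4 (the plot of genes that differed with all libraries). Of the 21, 17 also passed with the libraries numbered 1 and 2 alone. The genes were picked in these same libraries, so neither count is independent support. When the fit held only these 6 libraries, none of the 21 passed. The only gene called there has the identifier ENSG00000203812 and no symbol used here. It was listed at 0 in all 8 h libraries and at 15.5, 15.1 and 14.2 TPM at 12 h. Its limma adjusted p was 0.000659 there and 0.0531 in the fit of all 24 libraries (log2 difference 4.0, SE 0.81). In the latter fit it differed by -0.27 in siBOP1 mock, 2.23 in siFLuc IFN and 0.03 in siBOP1 IFN cells. How its reads were assigned is not given in the sources used here, so this level is uncertain.

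**Figure D1:**
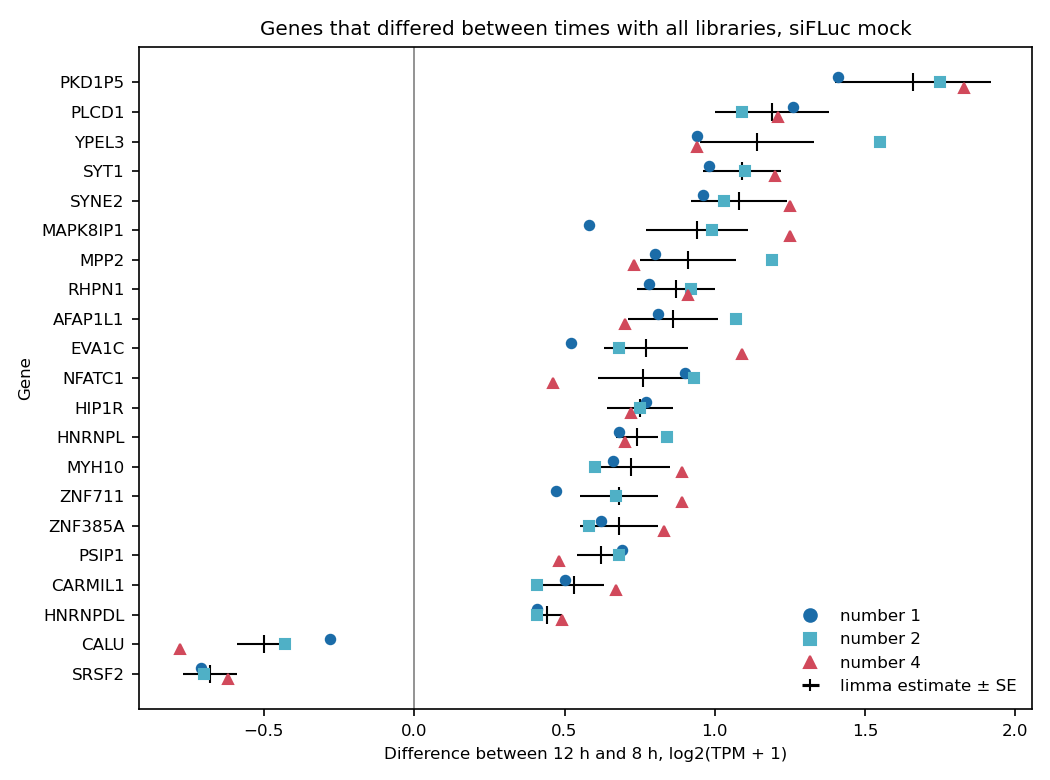
Difference between 12 h and 8 h in siFLuc mock cells for the 21 genes called with all libraries, on the log2(TPM + 1) scale, by library number (points) and as the limma estimate with its standard error (black). The 19 higher genes lie to the right of 0 and the 2 lower genes to the left in all 3 numbers. The genes were picked in these same libraries, which favours a shared sign.

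Among the genes with the lowest adjusted p were 3 that encode RNA-binding proteins of splicing. HNRNPL (chromosome 19, 38836388 to 38852347, minus strand, protein-coding; GENCODE 29 on GRCh38), a repressor and activator of exon inclusion, was at 231, 201 and 225 TPM at 8 h and 371, 362 and 367 TPM at 12 h in libraries 1, 2 and 4. All 12 h values lay above all 8 h values, and the log2 difference was 0.74 (SE 0.07, limma adjusted p 1.68e-05). SRSF2 (chromosome 17, 76734115 to 76737374, minus strand), an SR protein that promotes exon inclusion, was at 355, 348 and 370 TPM at 8 h and 216, 214 and 240 TPM at 12 h. It fell in each number, by 0.68 on the log2 scale (SE 0.09, limma adjusted p 0.00134). HNRNPDL, a paralog of the RNA-binding protein HNRNPD, was at 227, 223 and 225 TPM at 8 h and at 303, 297 and 315 TPM at 12 h, a log2 difference of 0.44 (SE 0.05, limma adjusted p 0.000446).

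These levels were close between libraries of a time, number 4 included, and the same direction was found in the 3 other arms, each with its own libraries. HNRNPL differed by 0.53 in siBOP1 mock cells, 0.56 in siFLuc IFN cells and 0.54 in siBOP1 IFN cells. For SRSF2 the values were -0.84, -0.75 and -0.80, and for HNRNPDL 0.47, 0.67 and 0.56. A list of 49 SR proteins, hnRNPs and their kinases, put together after these values were seen, held 2 higher and 1 lower gene with all libraries, and 3 higher and 3 lower with numbers 1 and 2. Of all genes, 0.118% and 0.0125% were with all libraries, and 0.897% and 0.741% with numbers 1 and 2. Its median was 0.00 with numbers 1 and 2, beside 0.01 for all genes, so its members did not share a direction. The further calls with numbers 1 and 2 were SRSF7, higher by 0.42, and SRSF1 and HNRNPC, lower by 0.53 and 0.43 on the log2 scale.

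SRSF1, an SR protein of early spliceosome assembly, was lower in all 12 h libraries and lowest in number 4. It was at 289, 270 and 298 TPM at 8 h and at 198, 189 and 93.0 TPM at 12 h. With all libraries its log2 difference was -0.91 (SE 0.19) and missed the threshold (limma adjusted p 0.0662), and with numbers 1 and 2 it was -0.53 (SE 0.09, adjusted p 0.0141).

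The other gene that fell with all libraries was CALU, which encodes the calcium-binding protein calumenin of the secretory pathway. It was at 236, 236 and 238 TPM at 8 h and 194, 175 and 138 TPM at 12 h (log2 difference -0.50, SE 0.09, limma adjusted p 0.0168). PSIP1, which encodes the chromatin-binding protein LEDGF, was at 41.8, 43.5 and 49.6 TPM at 8 h and 67.9, 70.5 and 69.6 TPM at 12 h, a log2 difference of 0.62 (SE 0.08, adjusted p 0.00134). The groups of CALU and PSIP1 did not overlap, a pattern that 10.6% of all genes showed upward and 5.02% downward.

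The remaining 16 genes that rose were mostly of low level, from 1.09 to 26.7 TPM at 8 h. They fell into no single list. SYT1, a calcium sensor of vesicle fusion, was at 6.23, 6.96 and 5.55 TPM at 8 h and 13.3, 16.1 and 14 TPM at 12 h (log2 difference 1.09, SE 0.13, limma adjusted p 0.000238). SYNE2, a nuclear envelope protein that links the nucleus to actin, was at 4.84, 4.97 and 4.72 TPM and then at 10.4, 11.2 and 12.6 TPM (1.08, SE 0.16, adjusted p 0.00214). Both had more than doubled in TPM in every number.

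The other genes have varied known roles. HIP1R, which links clathrin coats to actin, differed by 0.75, RHPN1 (rhophilin 1) by 0.87, and CARMIL1, which regulates actin capping, by 0.53. MYH10, a non-muscle myosin heavy chain, differed by 0.72 and the actin filament-associated AFAP1L1 by 0.86. Signalling genes were PLCD1, a phospholipase C (1.19), MAPK8IP1, a scaffold of JNK signalling (0.94), and NFATC1, a calcium-regulated transcription factor (0.76). The others with a symbol were YPEL3 (1.14), MPP2 (0.91), EVA1C (0.77), and the zinc finger genes ZNF385A and ZNF711 (0.68 each).

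The largest difference of the set belonged to a pseudogene, PKD1P5 on chromosome 16, a copy of PKD1. It was at 2.48, 1.36 and 1.97 TPM at 8 h and 8.26, 6.92 and 9.54 TPM at 12 h (log2 difference 1.66, SE 0.26, limma adjusted p 0.00593). How reads shared with PKD1 and its other copies were assigned is not given in the sources used here, so this level is uncertain. It was also the only one of the 21 genes with the other sign in siBOP1 mock cells, -0.36, and the difference between the siRNAs did not pass (2.02, SE 0.37, limma adjusted p 0.39).

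For the 21 genes as a set, 20 had the same sign in siBOP1 mock cells and 10 of them passed there, where 0.230% of all genes did. In siFLuc IFN cells 21 had the same sign and 17 passed (3.53% of all genes), and in siBOP1 IFN cells 21 and 15 (2.96%). The arms were tested in the same fit, which shares each gene's spread. Passing in another arm is therefore not independent of how the 21 genes were picked. Of the 18 protein-coding higher genes, 44.4% had a transcript annotated to nonsense-mediated decay, against 43.3% of protein-coding genes tested, and 72.2% had one with a retained intron, against 57.4%. These shares were not tested.

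With the libraries numbered 1 and 2 alone, 263 genes passed by limma (1.64% of those tested), 144 of them higher (0.897%) and 119 lower (0.741%). Leaving out only the siFLuc mock 12 h library numbered 4 and keeping the others gave 37 higher (0.23%) and 20 lower (0.125%). Leaving out the 12 h library numbered 4 of every group gave 96 (0.598%) and 98 (0.61%). Of the 144 higher genes, 110 were also above 0 in number 4. Of the 119 lower genes, 54 were also below 0 there. Over all 16062 genes, 10172 were above 0 and 5654 below 0 in number 4, with a median of 0.14. Number 4 thus leaned upward in general, and it went the other way more often among the genes that fell. How much of this goes with the general lean was not tested.

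By count, heat shock genes were the leading list among those falls. With numbers 1 and 2, 13 of 22 heat shock genes tested were lower at 12 h, 59.1% against 0.741% of all genes, and 0 were higher. The list median was -0.38, against 0.01 for all genes. With all libraries, 0 of the 22 passed. The list median was -0.40 in number 1, -0.37 in number 2 and 0.52 in number 4. Median-of-ratios rescaling gave -0.39, -0.42 and 0.34, and quantile normalization gave -0.38, -0.36 and 0.40. When only that library was left out, 9 of the 22 passed, all lower.

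The promoters of the genes described next are shown because HSF1 acts through heat shock elements, short repeats of GAA and its complement TTC, placed in alternating directions. Windows of 250 bases before to 50 after each gene start were taken from RefSeq on GRCh38.p14, and are written in the gene's own direction. A run of 3 repeat units, GAANNTTCNNGAA or, on the other strand, TTCNNGAANNTTC, were found in 6 of 31 windows of heat shock genes tested (19.4%), against 0.345% of the windows of genes tested and 0.490% of 35116 windows in all. By gene, 5 of the 13 that fell held it (38.5%) and 1 of 7 with a window that did not pass (14.3%), against 0.482% of genes tested. In the sequences of CHORDC1, DNAJA1 and HSPA8 the capitals mark this motif, which may overlap with itself. In HSPA1A and HSPA1B, which hold none, they mark the shorter GAANNTTC, present in 35.5% of heat shock windows and 4.93% of windows of genes tested.
CHORDC1 (chr11:90223000-90223299, minus strand): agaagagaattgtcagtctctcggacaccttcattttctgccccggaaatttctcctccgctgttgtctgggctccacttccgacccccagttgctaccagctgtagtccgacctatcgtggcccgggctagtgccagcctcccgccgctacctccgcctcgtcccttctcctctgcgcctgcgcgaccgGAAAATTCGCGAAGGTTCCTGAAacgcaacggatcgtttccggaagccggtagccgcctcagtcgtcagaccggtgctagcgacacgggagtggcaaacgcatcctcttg
DNAJA1 (chr9:33025023-33025322, plus strand): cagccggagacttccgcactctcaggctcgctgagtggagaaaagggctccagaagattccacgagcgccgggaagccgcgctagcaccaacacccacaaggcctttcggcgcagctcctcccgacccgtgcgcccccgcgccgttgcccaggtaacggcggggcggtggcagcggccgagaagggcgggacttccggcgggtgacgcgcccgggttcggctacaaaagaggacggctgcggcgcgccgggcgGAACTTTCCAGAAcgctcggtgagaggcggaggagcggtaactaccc
HSPA8 (chr11:123062087-123062386, minus strand): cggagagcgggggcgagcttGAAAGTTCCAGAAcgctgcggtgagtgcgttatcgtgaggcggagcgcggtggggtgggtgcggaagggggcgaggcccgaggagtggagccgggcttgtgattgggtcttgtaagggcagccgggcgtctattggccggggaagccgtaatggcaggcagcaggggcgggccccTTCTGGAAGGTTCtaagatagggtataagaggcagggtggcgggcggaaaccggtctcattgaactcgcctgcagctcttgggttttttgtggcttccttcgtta
HSPA1A (chr6:31815293-31815592, plus strand): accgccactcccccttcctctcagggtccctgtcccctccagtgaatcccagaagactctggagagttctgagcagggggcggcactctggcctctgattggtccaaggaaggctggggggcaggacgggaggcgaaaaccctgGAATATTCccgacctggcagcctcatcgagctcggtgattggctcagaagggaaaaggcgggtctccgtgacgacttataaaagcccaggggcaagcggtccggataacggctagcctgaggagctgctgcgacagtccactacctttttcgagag
HSPA1B (chr6:31827488-31827787, plus strand): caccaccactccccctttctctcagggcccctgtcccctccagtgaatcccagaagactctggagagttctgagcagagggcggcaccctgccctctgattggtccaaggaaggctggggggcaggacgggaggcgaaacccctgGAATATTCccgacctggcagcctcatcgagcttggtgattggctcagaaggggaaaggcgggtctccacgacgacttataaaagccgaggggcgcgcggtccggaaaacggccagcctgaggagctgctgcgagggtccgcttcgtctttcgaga

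The matches begin at position -60 in CHORDC1, at position 4 in DNAJA1, and at positions -230 and -55 in HSPA8, where 1 is the first base of the gene. A match is a description of these letters, and binding of HSF1 was not measured.

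Of the 22 genes, HSPA1B and HSPA1A, which encode inducible HSP70, had the largest falls with numbers 1 and 2. HSPA1B (chromosome 6, 31827735 to 31830255, plus strand) was at 563, 467 and 390 TPM at 8 h and at 117, 101 and 1277 TPM at 12 h in libraries 1, 2 and 4. Numbers 1 and 2 were at 21.2% of their 8 h level (log2 difference -2.22, SE 0.11, limma adjusted p 1.95e-06), whereas number 4 was above every 8 h library. HSPA1A (chromosome 6, 31815464 to 31817946, plus strand) was at 1212, 1033 and 665 TPM at 8 h and at 348, 375 and 1445 TPM at 12 h, or 32.2% of the 8 h level with numbers 1 and 2 (-1.63, SE 0.10, adjusted p 3.47e-06).

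HSPA1A and HSPA1B encode nearly the same protein and share most of their sequence, so the split of reads between them is uncertain. Their summed level was 1775, 1500 and 1055 TPM at 8 h and 465, 476 and 2721 TPM at 12 h. The sum had the same pattern as each gene. The constitutive HSP70 gene HSPA8 was far more abundant and fell less, from 2880, 2964 and 2674 TPM to 2183 and 2240 TPM in numbers 1 and 2 (-0.40, SE 0.05, limma adjusted p 0.00248), with 3308 TPM in number 4.

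Partners of HSP70 fell with it in numbers 1 and 2. HSPH1, a nucleotide exchange factor for HSP70, was at 161, 148 and 154 TPM at 8 h and 67.6, 62.2 and 287 TPM at 12 h (-1.24, SE 0.07, limma adjusted p 3.23e-06 with numbers 1 and 2). The J protein DNAJA1, which delivers clients to HSP70, was at 426, 412 and 406 TPM at 8 h and at 203, 203 and 470 TPM at 12 h (-1.04, SE 0.06, adjusted p 3.23e-06). The J protein DNAJB1 was at 173, 168 and 177 TPM at 8 h and at 109, 95.4 and 620 TPM at 12 h (-0.74, SE 0.07, adjusted p 0.000284). In each of these genes number 4 of 12 h lay above all 8 h libraries.

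Genes of the HSP90 system followed. HSP90AA1, the inducible cytosolic HSP90, was at 2054, 1918 and 1728 TPM at 8 h and 1300, 1262 and 2847 TPM at 12 h (-0.63, SE 0.07, limma adjusted p 0.000671 with numbers 1 and 2). The HSP90-binding protein CHORDC1 was at 93.0, 85.7 and 107 TPM and then at 43.7, 44.8 and 161 TPM (-1.0, SE 0.11, adjusted p 0.00162). The cochaperones AHSA1 and STIP1 and the constitutive HSP90AB1 fell by 0.52, 0.43 and 0.35. Also lower were HSPA4L (-0.74) and, of the 5 mitochondrial chaperone genes, HSPA9 (-0.27). When only the siFLuc mock 12 h library numbered 4 was left out, AHSA1 passed (limma adjusted p 0.041). STIP1, HSP90AB1, HSPA4L and HSPA9 did not pass in that fit (limma adjusted p 0.101, 0.234, 0.384 and 0.31).

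Of the 22 tested members, 9 did not pass with numbers 1 and 2. HSF1 itself was at 54.0, 47.2 and 50.6 TPM at 8 h and at 50.6, 46.7 and 75.1 TPM at 12 h (-0.06, SE 0.11, limma adjusted p 0.857). The small heat shock protein HSPB1 differed by -0.06 and HSF2 by 0.10. BAG3, HSPA4, HSPD1 and HSPE1 differed by -0.36, -0.20, -0.36 and -0.32, and the mitochondrial TRAP1 and GRPEL1 by 0.01 each. A second list of 42 tested chaperones and cochaperones, put together after these values were seen, held 8 lower and 0 higher genes with numbers 1 and 2, where 0.741% and 0.897% of all genes were. It included HSPB8 (-1.02), PPID (-0.86), JMJD6 (-0.65) and the collagen chaperone SERPINH1 (-0.46). Of 23 genes of the endoplasmic reticulum chaperone and unfolded protein list, HSPA5 (BiP) and DNAJB11 were lower, by 0.48 and 0.33 on the log2 scale.

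HSPA6, a strictly stress-inducible HSP70 gene of the second list, was above its 8 h level in each number. It was at 0.961, 0.7 and 1.95 TPM at 8 h and at 9.15, 1.68 and 231 TPM at 12 h, and did not pass with numbers 1 and 2 (1.51, SE 0.43, limma adjusted p 0.0979) or with all libraries (3.11, SE 0.87, adjusted p 0.135). In the 3 other arms its level at 12 h was at most 0.297 TPM in every library.

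In the 3 other arms, library 4 went with the other libraries. In siBOP1 mock cells HSPA1B was at 452, 445 and 352 TPM at 8 h and at 60.2, 66.0 and 69.7 TPM at 12 h. In siFLuc IFN cells it went from 727, 746 and 626 TPM to 109, 103 and 147 TPM, and in siBOP1 IFN cells it differed by -2.82 on the log2 scale with all libraries. None of these 12 h values came near 1277 TPM, the siFLuc mock value of number 4, as the plot of heat shock genes in every library shows.

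**Figure D2:**
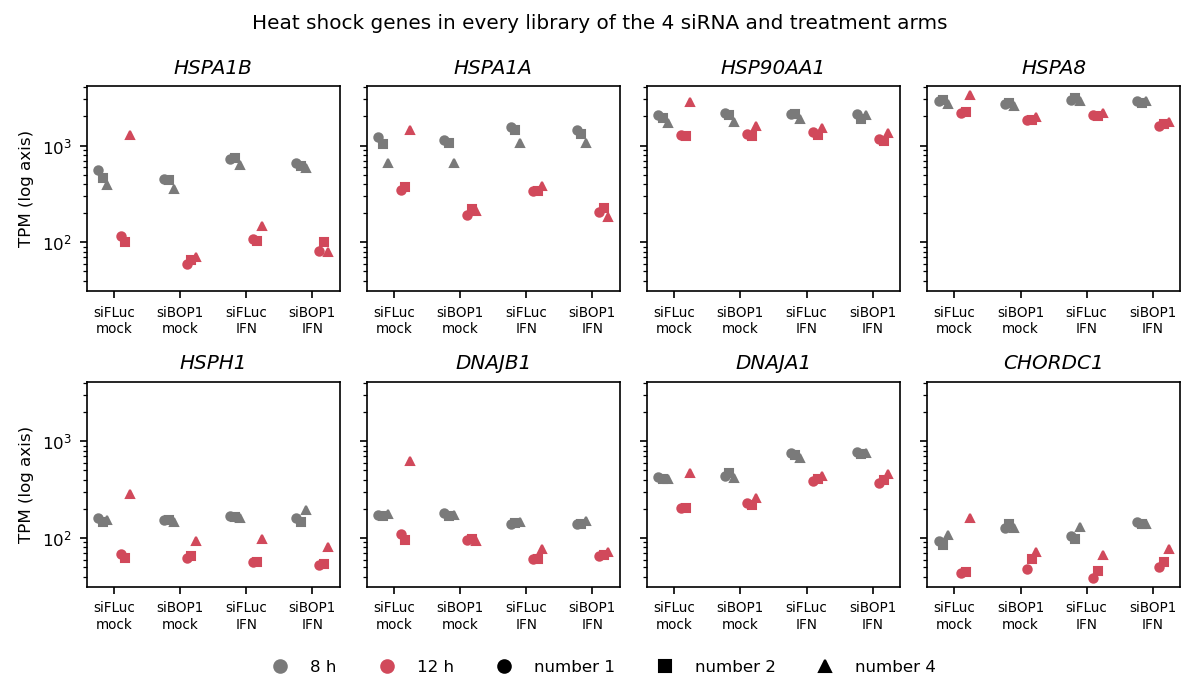
TPM (log axis) of 8 heat shock genes in all 24 libraries, at 8 h (grey) and 12 h (red), with the library number as the marker shape. The 12 h libraries are below the 8 h libraries in the 3 other arms for each of the 8 genes, while in siFLuc mock cells the library numbered 4 is above them, as in HSPA1B at 1277 TPM against 117 and 101 TPM.

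Counted over the list with numbers 1 and 2, 14 of the 22 genes were lower in siBOP1 mock cells (0.679% of all genes were), 15 in siFLuc IFN cells (1.72%) and 17 in siBOP1 IFN cells (2.07%), with 0 higher in each. The list medians were -0.50, -0.51 and -0.69. With all libraries kept, 4, 6 and 10 genes were lower, where 0.0934%, 0.697% and 0.511% of all genes were. HSPA1A fell more in siBOP1 than in siFLuc mock cells with numbers 1 and 2, by 2.43 against 1.63, yet the difference between the siRNAs did not pass (0.80, limma adjusted p 0.598). For HSPA1B that difference was 0.59 (adjusted p 1.0).

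The siFLuc mock 12 h library numbered 4 was also high in immediate early genes. FOS was at 2.61, 3.22 and 2.40 TPM at 8 h and at 9.43, 4.59 and 221 TPM at 12 h. EGR1 was at 0.351, 0.473 and 0.252 TPM and then at 6.24, 1.41 and 147 TPM. The list of 28 tested genes had a median of 0.16 in number 1, 0.17 in number 2 and 1.46 in number 4, and its summed level was 874 to 946 TPM at 8 h, 1053 and 987 TPM at 12 h in numbers 1 and 2 and 3548 TPM in number 4.

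The 12 h libraries numbered 4 of the other arms were high in these genes too, by less. In numbers 1, 2 and 4 of 12 h the list summed to 989, 1041 and 2033 TPM in siBOP1 mock cells, to 1390, 1407 and 2537 TPM in siFLuc IFN cells and to 1415, 1625 and 2050 TPM in siBOP1 IFN cells. At 8 h number 4 was not the highest library in any of the 4 arms.

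With all libraries 0 of the 28 passed. With numbers 1 and 2 the genes ATF3, NR4A1 and IER3 were higher (10.7% of the list, against 0.897% of all genes). When only the siFLuc mock 12 h library numbered 4 was left out, 0 of the 28 passed. NR4A1, an orphan nuclear receptor, was at 9.66, 5.93 and 16.6 TPM at 8 h and at 23.2, 14.5 and 206 TPM at 12 h (1.17, SE 0.23, limma adjusted p 0.0318 with numbers 1 and 2). ATF3, a stress-induced factor of the ATF family, was at 1.21, 0.834 and 3.18 TPM and then at 2.67, 3.26 and 48.1 TPM (0.98, SE 0.19, adjusted p 0.0297). Number 4 of 12 h was thus the highest library of all 6 in each of these genes. Number 4 of 8 h lay above number 2 of 12 h for NR4A1 and above number 1 of 12 h for ATF3.

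Other lists were also high in number 4 of 12 h. In numbers 1, 2 and 4 of 12 h, DUSP1, a phosphatase that acts on MAP kinases, was at 63.1, 42.2 and 595 TPM. PPP1R15A (GADD34) was at 38.9, 26.9 and 496 TPM, and the chemokine gene CXCL2 at 47.9, 50.9 and 362 TPM. TNFAIP3 (A20), an inhibitor of NF-kB signalling, was at 26.6, 23.5 and 209 TPM. The NF-kB and cytokine list had medians of 0.03, -0.01 and 0.91, and the ERK feedback list of 0.00, 0.23 and 0.82. The summed level of the NF-kB list in numbers 1, 2 and 4 of 12 h was 3455, 3777 and 6363 TPM, against 3126, 3244 and 4237 TPM in siBOP1 mock, 5209, 5403 and 7351 TPM in siFLuc IFN and 5116, 5679 and 5633 TPM in siBOP1 IFN cells. For ERK feedback it was 493, 471 and 1151 TPM, against 473, 488 and 758, 613, 600 and 1166, and 566, 642 and 952 TPM in those arms. High values in number 4 of 12 h were thus shared with other arms, except for the NF-kB list in siBOP1 IFN cells. At 8 h in siFLuc mock cells the lists differed. DUSP1 was at 35.8, 35.2 and 45.7 TPM in numbers 1, 2 and 4, and TNFAIP3 at 25.0, 23.6 and 16.4 TPM. The summed NF-kB list was lowest in number 4 there. The summed ERK feedback list was highest in number 4 at 8 h too. Its EGFR ligands summed to 63.8, 51.1 and 135 TPM, so part of that split was already present at 8 h.

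Mitochondrially encoded transcripts were low in that library. The 15 genes summed to 136448, 135616 and 127760 TPM at 8 h and to 150023, 144414 and 68578 TPM at 12 h, and all 15 were below 0 in number 4 (13 of them after quantile normalization). In the other arms number 4 was also the lowest of the 12 h libraries, at 120878 TPM in siBOP1 mock, 114603 TPM in siFLuc IFN and 121708 TPM in siBOP1 IFN cells. At 8 h number 4 was the lowest library of every arm as well, at 142166, 127328 and 108939 TPM in those arms. The last value lay below number 4 of 12 h in the same arm. None passed in any of the fits with all libraries or with numbers 1 and 2. MT-ND6, which is encoded on the other strand than the rest of the respiratory chain genes, was at 181, 106 and 118 TPM at 8 h and at 128, 92.9 and 4.44 TPM at 12 h. What sets this library apart was not tested, and handling, culture and library preparation cannot be told apart here.

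**Figure D3:**
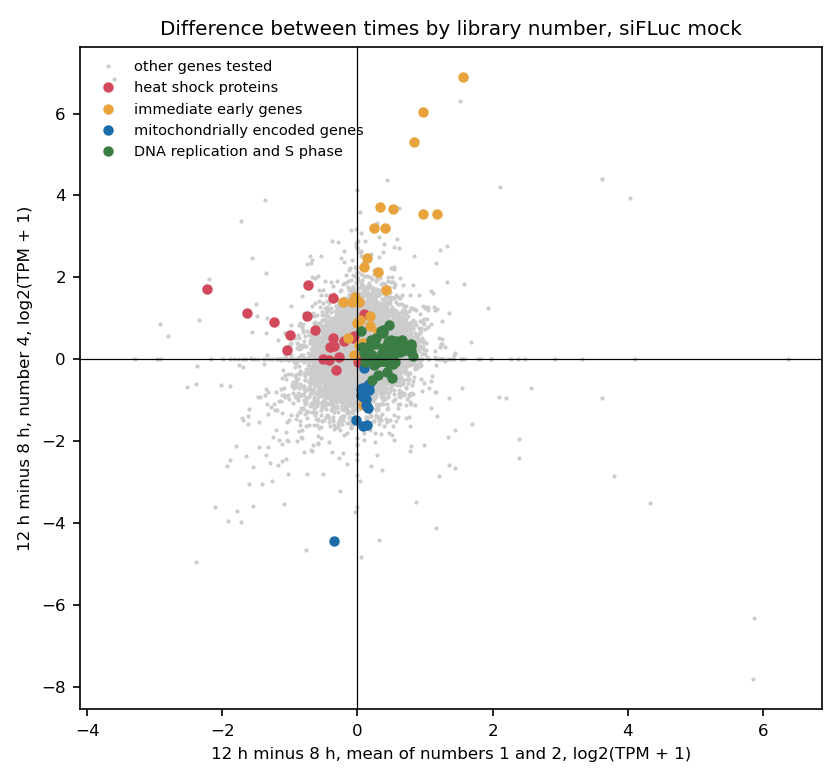
Difference between 12 h and 8 h of each gene tested, as the mean of numbers 1 and 2 (horizontal) and in number 4 (vertical), on the log2(TPM + 1) scale. Of the 22 heat shock genes (red), 19 lie to the left of 0 on the horizontal axis, and most lie above 0 on the vertical one (median 0.52), immediate early genes (orange) are high in number 4 (median 1.46), and mitochondrially encoded genes (blue) are low (median -0.93).

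Genes of DNA replication were higher at 12 h in numbers 1 and 2. Of 65 tested, 8 passed as higher (12.3%, against 0.897% of all genes) and 0 as lower, and 65 were above 0, as were 51.2% of all genes. The list median was 0.42. With all libraries 0 passed and the median was 0.31, and without the 12 h libraries numbered 4 only 1 passed. The size also depended on the 8 h libraries. Leaving out siFLuc mock 8 h number 2 gave a median of 0.16, with 60 of 65 above 0, and leaving out number 4 of 8 h gave 0.50. In number 4 the direction depended on scaling, with a median of 0.16 as deposited, -0.01 after median-of-ratios rescaling and -0.05 after quantile normalization, where the median of all genes in number 4 moved from 0.14 to -0.01 and 0.

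The 8 genes came from several steps of replication. MCM2 and MCM5 (subunits of the replicative helicase), ORC1 (origin recognition) and CDC45 (helicase activation) differed by 0.55, 0.79, 0.64 and 0.82 with numbers 1 and 2. The clamp loader subunit RFC2 and the chromatin assembly factor CHAF1A differed by 0.53 and 0.61, TK1, which supplies thymidine nucleotides, by 0.79, and the G1/S cyclin CCNE1 by 0.67. MCM5 was at 63.5, 46.4 and 85.5 TPM at 8 h and at 102, 87.1 and 108 TPM at 12 h. TK1 was at 62.8, 49.3 and 110 TPM and then at 98.9, 95.4 and 126 TPM, so the 8 h library numbered 4 lay above the 12 h libraries numbered 1 and 2.

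The summed level of the replication list was 2327, 1970 and 2993 TPM at 8 h and 2862, 2735 and 3210 TPM at 12 h. Genes of G2 and mitosis had a like pattern, with a median of 0.43 in numbers 1 and 2, 57 of 58 above 0 and 2 higher by the test: the RhoA activator ECT2 (0.56) and the spindle protein NUSAP1 (0.71). Their median in number 4 was 0.11 as deposited and -0.07 and -0.09 after the 2 rescalings. With all libraries the list median was 0.32. It was 0.13, with 49 of 58 above 0, without siFLuc mock 8 h number 2, and 0.50 without number 4 of 8 h. In siBOP1 mock cells the medians with numbers 1 and 2 were 0.15 for replication (0 of 65 higher) and 0.41 for G2 and mitosis (2 of 58, where 0.554% of all genes were), and no gene of either list passed the test of a difference between the siRNAs. More cells in a phase and more of these RNAs per cell cannot be told apart in bulk RNA.

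Single members of other lists also passed with numbers 1 and 2. Of 42 tested genes of the ATF4 and integrated stress response list, 2 were lower (0.741% of all genes were), both enzymes of amino acid synthesis. ASNS (asparagine synthetase) was at 150, 123 and 120 TPM at 8 h and at 63.7, 59.0 and 118 TPM at 12 h (-1.13, SE 0.14, limma adjusted p 0.00242 with numbers 1 and 2). CBS (cystathionine beta-synthase) was lower by 0.78 on the log2 scale (adjusted p 0.0196). The medians of that list were -0.01, 0.11 and 0.21 in numbers 1, 2 and 4, so the fall was not shared across the list. Of its 13 amino acid synthesis genes, 9 were below 0 with numbers 1 and 2 (median -0.19), as were 48.3% of all genes. In number 4 the median of those 13 genes was 0.03.

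In the list of EGFR ligands and ERK feedback genes, the ETS factors ETV1 and ETV4 were higher with numbers 1 and 2. ETV1 was at 6.06, 6.06 and 4.92 TPM at 8 h and at 14.2, 13.8 and 9.65 TPM at 12 h (1.08, SE 0.22, limma adjusted p 0.0319), with no overlap between the times. ETV4 differed by 0.73 (adjusted p 0.0159). HMOX1 (heme oxygenase) and GPX2 (a glutathione peroxidase) of the NRF2 list were higher by 0.59 and 0.44, and PFKM and PGAM1 of glycolysis by 0.71 and 0.27. MXI1, a MAX partner and hypoxia target, was higher by 0.62 and TEAD3, a transcription factor of the Hippo pathway, by 0.77. NT5E, the 5'-nucleotidase CD73 and a target in that pathway, was lower by 0.59, and CRISPLD2 of the glucocorticoid list by 0.79. The lists held 23 (ERK feedback), 31 (NRF2), 24 (glycolysis), 23 (hypoxia), 10 (MYC and MAX), 30 (Hippo) and 15 (glucocorticoid) tested genes. Each had at most 2 calls in total, where 0.897% of all genes were higher and 0.741% lower. List medians ran from -0.05 to 0.19 with numbers 1 and 2, beside 0.01 for all genes.

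Of 60 interferon-stimulated genes tested in these cells without IFN, 3 were higher with numbers 1 and 2 (0.897% of all genes were): PLSCR1 (0.37), TAP1 (0.44) and PSMB8 (0.35), the last 2 of antigen presentation. The list median was 0.11 with all libraries and 0.11 with numbers 1 and 2. Of the 79 ribosomal protein genes none passed in either fit, and the median was -0.03 with numbers 1 and 2. Of 115 ribosome biogenesis genes none passed in either fit, with a median of -0.09 with numbers 1 and 2; the lowest with all libraries were RRS1 (-0.55) and DCAF13 (-0.46).

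For several lists with no call in either fit, the 2 genes with the largest difference with all libraries are given as values. Among clock genes these were PER1 (1.20) and BMAL1 (0.79), and among TGF-beta response genes SKIL (0.49) and TGFBR1 (0.41). SREBF1 (0.27) and ACSL3 (0.23) led fatty acid synthesis, and GDF15 (1.11) and SESN2 (0.96) the p53 list. BCL6 (0.72) and ARRDC3 (0.71) led the FOXO and MondoA list, MT1A (-0.87) and MT1X (-0.44) the metallothioneins, and ORM1 (-0.46) and C3 (0.36) the acute phase list. AMD1 (-0.51), PAOX (0.44), H2AC17 (0.96) and H4C8 (-0.70) led polyamine and histone genes. Several of these rest on number 4: with numbers 1 and 2 ARRDC3 was at -0.38 and SKIL at -0.19.

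**Figure D4:**
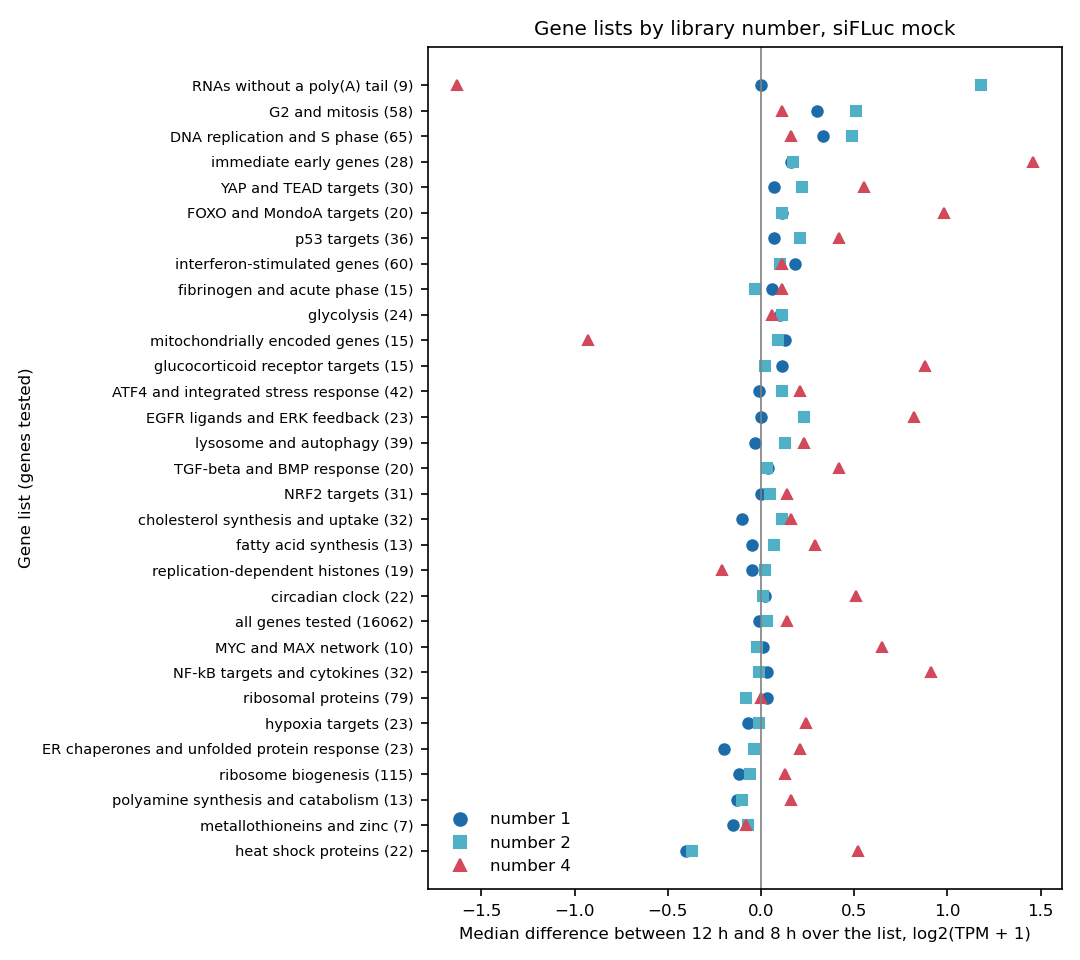
Median difference between 12 h and 8 h over each gene list, by library number, in siFLuc mock cells on the log2(TPM + 1) scale, with the number of genes tested in parentheses. Heat shock genes are lowest in numbers 1 and 2 (-0.40 and -0.37) and at 0.52 in number 4, while replication and G2 and mitosis genes are above 0 in numbers 1 and 2 and change sign in number 4 with rescaling.

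Of the genes called with numbers 1 and 2 outside the lists, 3 that were chosen after their values were seen lay among the largest differences with at least 5 TPM. TNFRSF10D, a decoy receptor for TRAIL, was at 47.3, 44.4 and 22.5 TPM at 8 h and at 20.3, 18.4 and 12.3 TPM at 12 h (-1.20, SE 0.10, limma adjusted p 0.00012). LIMD2, a LIM domain protein, was at 4.47, 3.45 and 4.62 TPM and then at 10.8, 10.2 and 5.88 TPM (1.22, SE 0.19, adjusted p 0.00936), and GRB7, an adaptor of receptor tyrosine kinases, at 5.28, 5.45 and 5.74 TPM and then at 12.3, 10.8 and 12.4 TPM (0.98, SE 0.18, adjusted p 0.0205).

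The time difference was then compared between the siRNAs, in mock cells with separate libraries. The fit shares each gene's spread between arms, so calls in different arms are not independent. With numbers 1 and 2, 105 genes were called in both, or 39.9% of the 263 of siFLuc cells and 53% of the 198 of siBOP1 cells (1.23% of genes), and all 105 had the same sign (42 higher, 63 lower). Of the 144 genes higher in siFLuc cells 136 were above 0 in siBOP1 cells, and of the 119 lower genes 114 were below 0. In the test of the difference itself, 0 of 16062 genes passed with all libraries (limma, 299 at an unadjusted p under 0.05, lowest adjusted p 0.39). With numbers 1 and 2, 1 gene passed (0.00623%), the vault RNA VTRNA1-2, listed at 13.2, 5.78 and 0 TPM at 8 h and at 0 in the 12 h libraries of siFLuc mock cells.

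Between mock and IFN in siFLuc cells, 143 of the calls with numbers 1 and 2 were shared, 54.4% of the 263 and 18.2% of the 786 called with IFN (4.89% of genes), with 77 higher and 65 lower in both. The test of the difference with all libraries was passed by 1 gene (0.00623%), ACO1, a cytosolic aconitase that also binds iron-responsive RNA elements as IRP1. ACO1 was at 58.0, 51.5 and 44.6 TPM at 8 h and at 61.9, 59.6 and 54.6 TPM at 12 h with mock treatment (log2 difference 0.20, SE 0.10), and at 24.5, 21.5 and 20.2 TPM and then 12.5, 11.9 and 12.2 TPM with IFN (-0.80, SE 0.10).

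With numbers 1 and 2, 7 genes passed that test (0.0436% of those tested), ACO1 among them (1.01, SE 0.14, limma adjusted p 0.0313). Of the 7, 5 were below 0 (0.0311%), among them TNFRSF10D (-1.43), C15orf48 (-1.14) and BIRC3 (-0.85), an inhibitor of apoptosis, whose levels in numbers 1 and 2 were lower at 12 h than at 8 h with mock treatment and higher with IFN. BIRC3 was at 36.5, 37.3 and 38.5 TPM and then 28.0, 28.2 and 109 TPM with mock treatment, so its value rests on leaving out number 4. VTRNA1-2 and the small nuclear RNA RNVU1-31, RNAs not known for poly(A) tails, also passed.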

How the data were processed

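The authors deposited 1 table of TPM values for 60609 gene rows and 24 libraries. RNA was purified with TRIzol and columns, DNase-treated and turned into stranded mRNA libraries, per the labels' protocols. The aligner, counter and build are not given in the sources used here. TPM keeps no depth, so depth is unknown and no counting interval can be given.

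Columns were mapped by name. Those numbered 4 match no replicate label (1 to 3), so they stand for their group only. Nothing says that replicates are separate cultures, so p-values measure the spread between these libraries.

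Tests used limma 3.58.1 in R 4.3.3 (eBayes with trend, 1 mean per group over 24 libraries) on log2(TPM + 1), for the 16062 genes that reached 1 TPM in 3 or more libraries, with Benjamini-Hochberg adjustment and a threshold of 0.05. This scale understates changes of low genes. On simulated data with 200 changed genes of 16062, this comparison recovered 86% at a log2 change of 1 and 98% at 2, with 10 false calls of 194. The simulated noise was independent and had the same spread in every library, so no library stood apart, and low genes were not among those changed. The recovery thus need not hold for genes on which number 4 of 12 h differed from the others. Arms were compared by interaction terms.

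Members and lists were chosen with earlier results of these data known. The naming rule took the 10 largest rises and falls past the threshold with at least 5 TPM and no overlap (with all libraries, and in both fits), up to 4 called or the 2 largest members per list, interaction calls, and BOP1. Further genes, including list members named for numbers 1 and 2 or for library 4, were chosen after their values were seen. Positions are from GENCODE 29, which held 58489 of the IDs. The alternatives were pseudocount, filter, scaling, weights, trend, libraries used and a replicate block. Some results are not reported here.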

Additional observations from a re-analysis of the deposited data

Results flagged for a closer look

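ACO1 differed between mock treatment and IFN in how it changed with time in siFLuc cells, by the test of the difference itself. The difference between 12 h and 8 h with mock treatment minus that with IFN was 1.0 on the log2 scale (SE 0.15, limma adjusted p 0.0221). The threshold was missed with median-of-ratios rescaling (1.03, adjusted p 0.0558), quantile normalization (1.07, 0.162) and only the groups compared in the fit (1.0, 0.295). Leaving out single libraries gave values of 0.90 to 1.09, and 9 of those 12 fits missed the threshold, with adjusted p up to 0.133.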

How the results depend on the processing

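The counts of the comparison between times depended on the libraries and the fit. With all libraries they were 19 higher and 2 lower. They became 144 and 119 with numbers 1 and 2 alone, 96 and 98 without the 12 h libraries numbered 4 (an alternative chosen after seeing the data), and 494 and 219 with limma array weights. A fit of the compared groups alone gave 1 and 0 (1362 genes at an unadjusted p under 0.05). Lower genes numbered 12 with median-of-ratios rescaling, 10 with quantile normalization and 9 with no filter beyond a value above 0. Leaving out 1 library at a time gave 6 to 37 higher and 2 to 20 lower genes; the most came without the siFLuc mock 12 h library numbered 4. The causes were not tested.

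The replicate numbers were not taken as pairs, since the correlation of deviations from the group means between same-numbered libraries was 0.153 and 0.196 for numbers 2 and 4 but 0.078 for number 1. Numbers 2 and 4 correlated best with their own number and number 1 did not; with numbers 1 and 2 alone both did, at 0.067. With the replicate block, 202 genes were higher and 49 lower, and 259 and 181 with numbers 1 and 2 alone. Of the 65 replication genes, 7 were higher with the block (0 without) and 27 with it on numbers 1 and 2 (8 without). With array weights 7 were. Of the 58 G2 and mitosis genes, 1, 14 and 1 were higher in those settings. Of all 16062 genes, 202, 259 and 494 were higher in the same settings. The counts of 1 of 58 are therefore not read as a result about that list.

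For the difference between siRNAs, 1 gene was higher and 1 lower with no filter and 1 lower with numbers 1 and 2, and 0 in either direction in every other setting, the replicate block and each left-out library included. For the difference between mock and IFN, 1 higher and 0 lower genes became 2 and 5 with numbers 1 and 2, 3 and 5 with those and the replicate block, 1 and 1 with the replicate block alone, 2 and 3 with array weights, 0 and 0 with either rescaling, 1 and 2 without the 12 h libraries numbered 4, 1 and 2 with no filter, and 1 and 1 with only the groups compared. Leaving out 1 library gave 0 to 1 higher and 0 lower.

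Of 1294 values of named genes over 24 settings, 19 had the other sign, none of them past the threshold with all libraries. With numbers 1 and 2, with or without the replicate block, these were DUSP6 (-0.03), SKIL (-0.19), ERN1 (-0.06) and ARRDC3 (-0.38, adjusted p 0.0426 with the replicate block). Without the 12 h libraries numbered 4 they were HILPDA (0.11), ARRDC3 (-0.03) and MT-ND3 (0.06). With array weights they were ARRDC3 (-0.03) and MT-ND3 (0.01). Leaving out 1 library at a time, the values ran from -1.08 to 0.11 for HILPDA, -0.03 to 1.13 for ARRDC3, -0.01 to 0.57 for C3, -0.85 to 0.06 for MT-ND3 and -0.25 to 0.05 for BOP1; the first 2 and MT-ND3 changed sign without the siFLuc mock 12 h library numbered 4. Depth is unknown, so its limit on low genes cannot be stated.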
